A study of Homo sapiens with 6 samples.

Results

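The genes described here encode the machinery that attaches chromosomes to the mitotic spindle: 46 genes of the kinetochore, the spindle assembly checkpoint and the chromosomal passenger complex, of 58735 genes in the table. They were chosen by name, with earlier results of these data known, and placed by role in 4 groups. These hold 20 genes named as centromere proteins, 12 of the outer kinetochore, 8 of the checkpoint, and 6 of the passenger complex and its shugoshin partners. All 46 names matched a single gene each. Messenger RNA was sequenced from pancreatic progenitor cells made from the wild-type human induced pluripotent stem cell line Ff-I01s01. Control cultures spent day 6 to day 8 in the step called S3 without K-3 (n = 3 libraries), and treated cultures had K-3 at 2 µM over the same days (n = 3 libraries). K-3 is known from the labels only by this code name, and the stated aim was to learn how it affects differentiation, read at the progenitor stage. All libraries come from this single cell line, and nothing says that the 3 libraries of a group were separate differentiations, so p-values measure the spread between libraries, which may be technical.

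The kinetochore is built on centromeric chromatin that carries the histone variant CENP-A. Inner proteins of the constitutive centromere network bind this chromatin, and the outer network of KNL1, the MIS12 complex and the NDC80 complex grips the microtubules. Unattached kinetochores recruit the checkpoint kinases and the MAD and BUB proteins, which delay anaphase, while the passenger complex, with Aurora B kinase as its enzyme, releases wrong attachments. Many of these genes are transcribed mainly in the G2 and M phases, so in bulk RNA their level follows how many cells are dividing as well as how much each cell makes, and these cannot be told apart here.

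With K-3, 11 of the 45 tested members rose and 0 fell (24.4% higher, against 1.14% of all 12989 tested genes higher and 0.901% lower). All 4 subunits of the passenger complex rose, as did 4 checkpoint genes (BUB1, BUB1B, MAD2L1 and TTK) and 3 outer kinetochore genes (NDC80, NUF2 and SKA3). None of the 19 tested centromere protein genes passed, although 11 of them passed at an unadjusted p under 0.05. The rises were small, from 1.25-fold for TTK to 1.47-fold for NDC80 in mean FPKM, the length-scaled and depth-scaled fragment values that the authors deposited. Of the other 34 tested members, 12 had a positive change and an adjusted p between 0.05 and 0.1. The test was limma on log2(FPKM + 1) with a Benjamini-Hochberg threshold of 0.05, two-sided, over genes whose mean reached 1 FPKM; fold changes called log2 below are on this scale, where changes of low genes come out too small. CENPP, at 0.407 ± 0.014 FPKM in Control, against 0.476 ± 0.053 with K-3 (SD, n = 3 per group), lay below that mean and was not tested.

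Each fit that leaves out 1 library also has fewer libraries, and the part of this in its count was not tested. Leaving out 1 library at a time changed the count of 11 in both directions. It was 14 when Control replicate 1 was dropped, 16 for Control replicate 2, 1 (NDC80) for Control replicate 3, and 0 for K-3 replicate 1, 2 or 3, where limma still gave 27, 27 and 31 members higher at an unadjusted p under 0.05. The direction was steadier: 43 of 45 tested members had a positive log2 change (95.6%, against 54.6% of all tested genes), and between 41 and 43 did in each fit with a library left out. In 33 of the 45 (73.3%) all K-3 values lay above all Control values, as they did in 15.4% of all tested genes. At an unadjusted p under 0.05, 30 members (66.7%) were higher and 0 lower, against 11.7% and 10.4% of all tested genes. Testing protein-coding genes only gave 23 of 45 members higher, against 3.62% of all genes in that test. Run on whole fragments worked back from FPKM, limma voom gave 19 of 45, against 3.17% of all tested genes. With no filter on low values limma called 0 members. At an unadjusted p under 0.05, 31 of the 46 (67.4%) were then higher, against 5.37% of all genes tested.

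**Figure D1:**
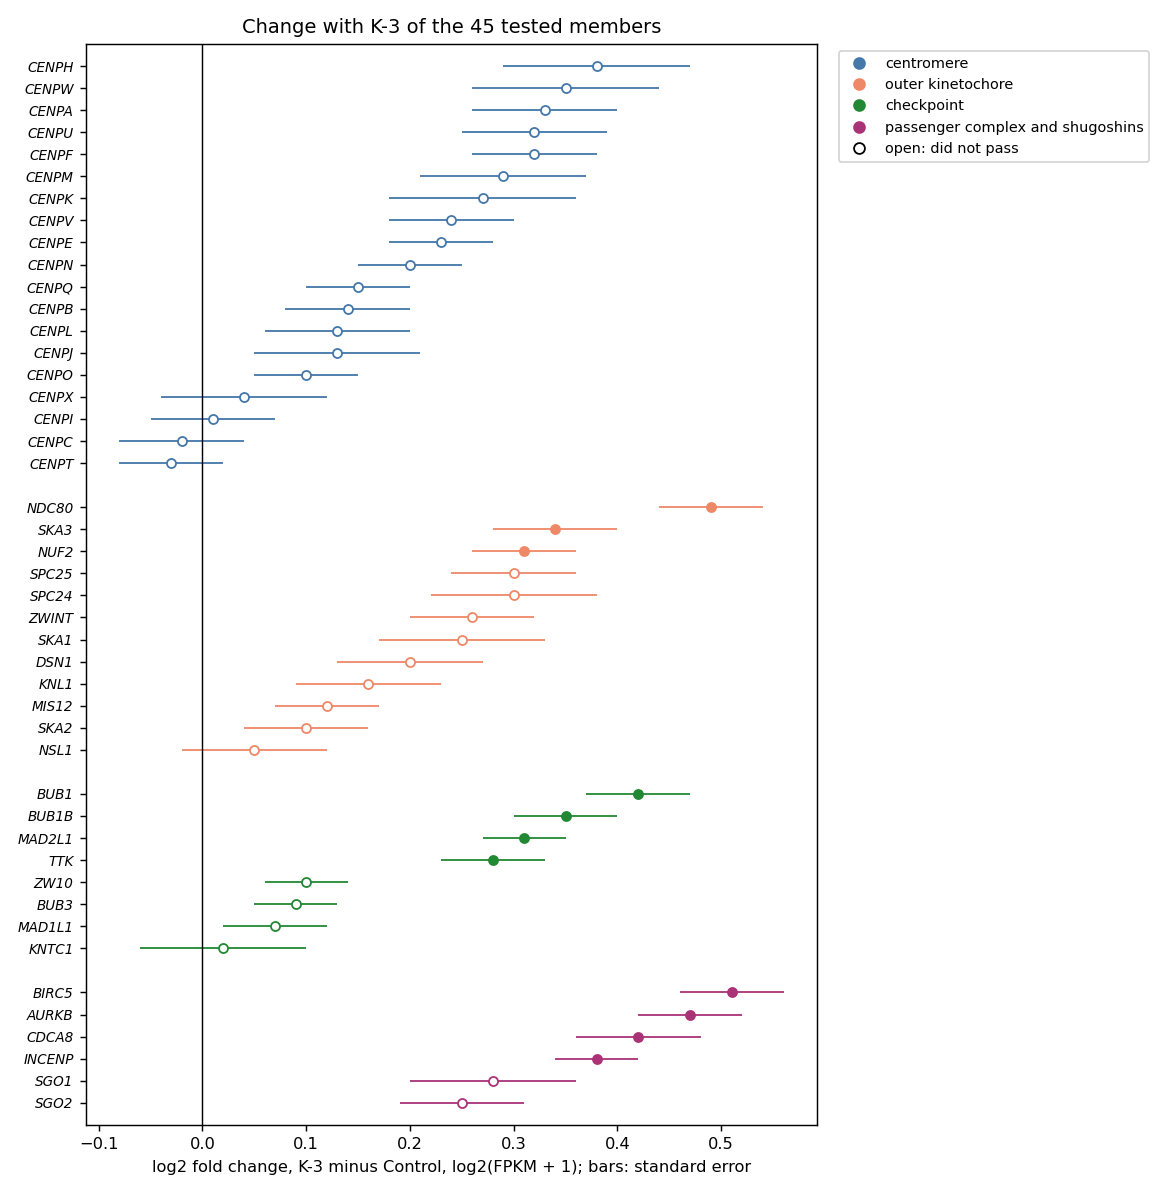
Log2 fold change, K-3 minus Control on log2(FPKM + 1), of the 45 tested members in 4 role groups, with standard errors as bars; filled points passed an adjusted p of 0.05. The 11 filled points lie between 0.28 and 0.51, and only CENPC and CENPT lie below 0.

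Depth ran from 35371195 to 38809532 fragments among the Control libraries and from 41876557 to 50245547 among the K-3 libraries, so every K-3 library was deeper. Thinned to equal depth, 10 members rose; TTK was the call lost (adjusted p = 0.0614), and the median log2 change of the members was 0.24. Members were well covered: CENPM, the tested member with the fewest fragments, had 202 to 387 per library. SPC24, the tested member with the lowest Control level per length apart from CENPL and CENPO, had 231 to 449 fragments per library. Of the progenitor markers, FOXA2, GATA4, GATA6 and HHEX stood at 86.2 to 175 FPKM and PDX1 at 14.3 ± 3.2 FPKM in Control and 22.2 ± 1.2 with K-3 (adjusted p = 0.0637), while NKX6-1, a later progenitor factor, had 0 in all 6 libraries. Markers of other cell types did not pass: 0 of 5 liver genes (summed level 2560 to 2830 FPKM in Control, against 2400 to 2550 with K-3), 0 of 2 tested pluripotency genes (356 to 389 and 356 to 363 FPKM, nearly all LIN28A, with NANOG at 0.00172 and 0.00243) and 0 of 1 tested mesenchyme gene (5.25 to 6.4 and 5.97 to 6.76 FPKM). Blood and endothelial markers summed to at most 0.097 FPKM and neural markers to at most 0.618 FPKM in any library. The part of these markers in the results was not tested.

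The 4 passenger complex subunits had some of the largest changes. BIRC5, which encodes survivin, the subunit that reads phosphorylated histone H3 at centromeres, had 14.0, 15.3 and 13.9 FPKM in Control, against 22.0, 19.9 and 20.9 under K-3. The K-3 libraries all lay above the Control libraries, by 1.45-fold in the means (log2 fold change 0.51, SE 0.05, limma adjusted p = 0.0183). AURKB, the gene of Aurora B kinase, had 12.5, 12 and 11.2 FPKM in Control, against 16.9, 16.3 and 17.3 under K-3. Its groups did not overlap either, and the log2 fold change was 0.47 (SE 0.05, limma adjusted p = 0.0178). Of all tested genes, 15.4% had every K-3 value above every Control value. INCENP, the scaffold that holds the kinase and activates it, had 10.9, 10.7 and 10 FPKM in Control, against 14.2, 13.5 and 14.2 under K-3 (log2 fold change 0.38, SE 0.04, limma adjusted p = 0.0194). CDCA8, which encodes borealin, rose from 12.9 ± 1.1 to 17.6 ± 0.23 FPKM (log2 fold change 0.42, limma adjusted p = 0.0283).

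Ratios between partner genes within a library, here and below, were chosen after the changes were known and are given without a test. The ratio of CDCA8 to INCENP in FPKM was 1.26, 1.25 and 1.16 in Control and 1.24, 1.28 and 1.25 with K-3, so the groups overlapped. AURKB to INCENP went from 1.13 ± 0.016 to 1.2 ± 0.015, and BIRC5 to INCENP from 1.37 ± 0.076 to 1.5 ± 0.042, in both cases without overlap but by less than the genes' own changes. The shugoshins, which protect centromeric cohesion until anaphase and help place the passenger complex, did not pass: SGO1 had 2.6 ± 0.33 FPKM in Control, against 3.34 ± 0.18 in treated libraries (0.28 on the log2 scale, adjusted p = 0.102), and SGO2 had 4.96 ± 0.29 and 6.1 ± 0.35 (0.25, adjusted p = 0.0668). In both shugoshin genes all K-3 values lay above all Control values, as they did in 15.4% of all tested genes.

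**Figure D2:**
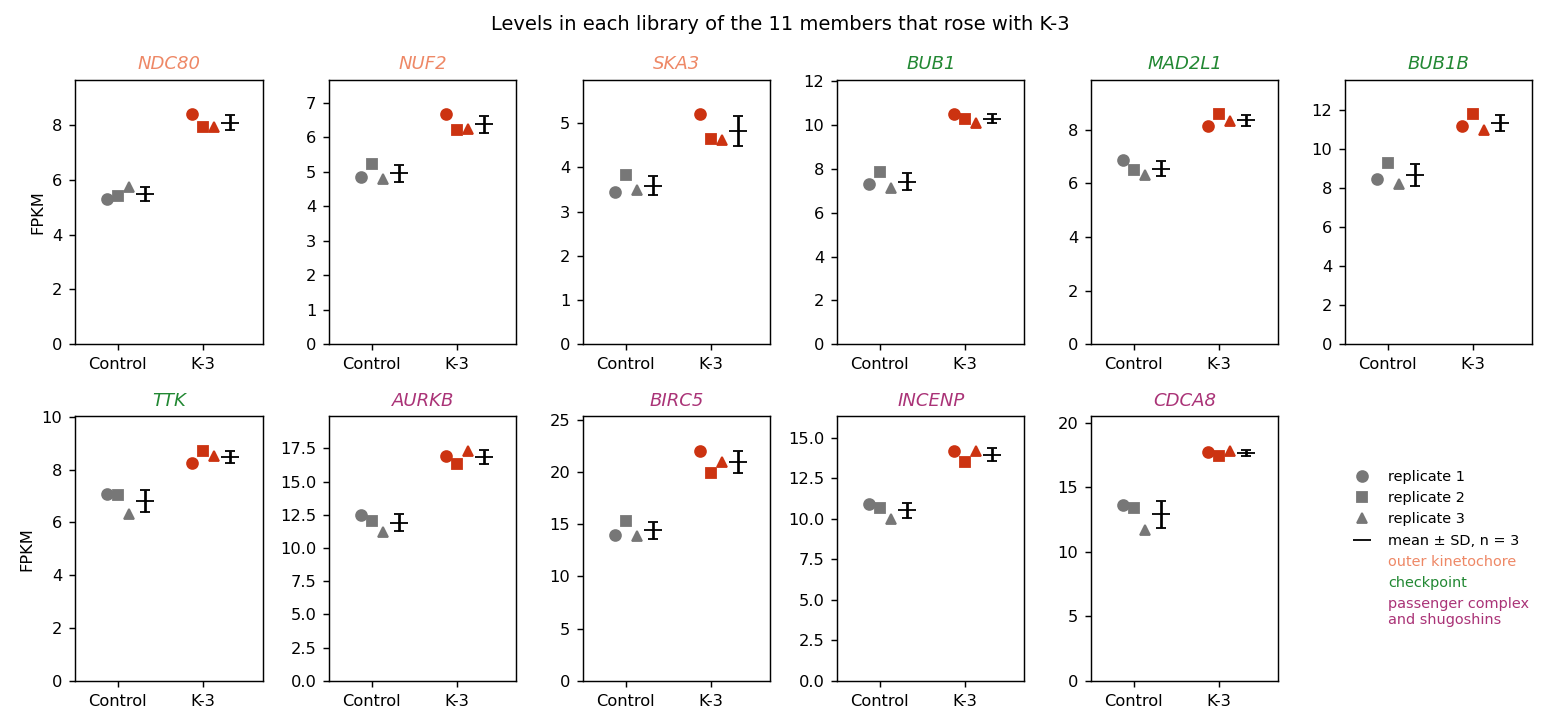
FPKM in each library of the 11 members that rose, with the mean and SD of 3 libraries beside each group; symbols mark the replicate number, and axes start at 0. In every panel the 3 K-3 libraries lie above the 3 Control libraries, for example 19.9 to 22.0 against 13.9 to 15.3 for BIRC5.

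In the checkpoint group the members divided. BUB1, the kinase that marks centromeric histone H2A and recruits other checkpoint proteins, had 7.3, 7.86 and 7.12 FPKM in Control, against 10.5, 10.3 and 10.1 under K-3 (log2 fold change 0.42, SE 0.05, limma adjusted p = 0.0183). BUB1B, which encodes BUBR1, a part of the mitotic checkpoint complex that inhibits anaphase, had 8.49, 9.32 and 8.24 FPKM in Control, against 11.2, 11.8 and 11 under K-3 (log2 fold change 0.35, SE 0.05, limma adjusted p = 0.0345). MAD2L1, the gene of the MAD2 protein that captures CDC20, had 6.86, 6.49 and 6.29 FPKM in Control, against 8.14, 8.57 and 8.32 under K-3 (log2 fold change 0.31, SE 0.04, limma adjusted p = 0.0291). In these 3 genes all K-3 values lay above all Control values, as in 15.4% of all tested genes. TTK, the MPS1 kinase that starts checkpoint signalling, rose from 6.8 ± 0.41 to 8.49 ± 0.23 FPKM (log2 fold change 0.28, limma adjusted p = 0.0444).

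The other 4 checkpoint genes had log2 changes of 0.02 to 0.10 and did not pass. BUB3, the adaptor that carries both BUB1 and BUBR1, had 12.2 ± 0.47 FPKM in Control, against 13 ± 0.069 with K-3 (adjusted p = 0.256). MAD1L1, the platform on which MAD2 is converted, had 4.83 ± 0.24 and 5.14 ± 0.19 FPKM (adjusted p = 0.409). ZW10 and KNTC1 encode subunits of the RZZ complex, which brings dynein and the MAD proteins to kinetochores. ZW10 had 8.79 ± 0.13 and 9.51 ± 0.41 FPKM (adjusted p = 0.225). KNTC1 had 3.53, 3.97 and 3.97 FPKM in Control, against 4.48, 3.66 and 3.56 under K-3, with K-3 replicate 1 above all other libraries and the other two K-3 libraries within the Control range (log2 fold change 0.02, -0.03 leaving out Control replicate 1 and -0.06 leaving out K-3 replicate 1).

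Ratios of checkpoint partners, each a gene that rose over a gene that did not pass, restate the same division inside each library. BUB1 to BUB3 in FPKM was 0.576, 0.656 and 0.604 in Control and 0.808, 0.789 and 0.783 with K-3. MAD2L1 to MAD1L1 was 1.36, 1.42 and 1.3 in Control and 1.66, 1.63 and 1.59 with K-3. Both ratios were higher in every K-3 library than in any Control library, and neither depends on how libraries were scaled, since numerator and denominator come from the same library.

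**Figure D3:**
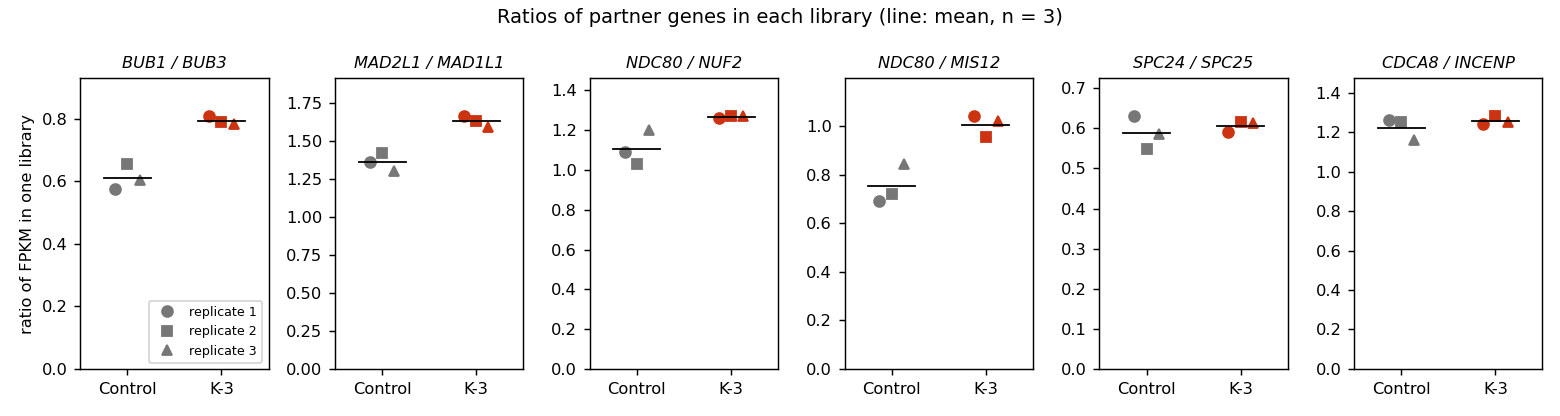
Ratio of FPKM of 2 partner genes within each library, with the mean of 3 libraries as a line; symbols mark the replicate number and axes start at 0. The groups are apart for BUB1 to BUB3, MAD2L1 to MAD1L1, NDC80 to NUF2 and NDC80 to MIS12, and overlap for SPC24 to SPC25 and CDCA8 to INCENP.

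Among outer kinetochore genes NDC80 had the largest change. NDC80, the subunit whose head binds the microtubule, had 5.29, 5.39 and 5.75 FPKM in Control, against 8.39, 7.91 and 7.93 under K-3. That was a rise of 1.47-fold, the largest ratio of means among the 46 members (log2 fold change 0.49, SE 0.05, limma adjusted p = 0.017). All K-3 values lay above all Control values, as in 15.4% of all tested genes. By p-value NDC80 ranked 6 among all tested genes. NUF2, its coiled-coil partner, had 4.85, 5.23 and 4.79 FPKM in Control, against 6.67, 6.22 and 6.24 under K-3 (log2 fold change 0.31, SE 0.05, limma adjusted p = 0.0345). The other end of the complex, SPC24 and SPC25, which joins it to the kinetochore, had log2 changes of 0.30 each and did not pass (adjusted p = 0.085 and 0.0588). Their ratio, SPC24 to SPC25, was 0.589 ± 0.041 in Control and 0.607 ± 0.013 with K-3 and overlapped between groups, while NDC80 to NUF2 went from 1.11 ± 0.086 to 1.27 ± 0.0081 without overlap.

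SKA3, of the SKA complex that helps kinetochores follow shortening microtubules, had 3.44, 3.83 and 3.49 FPKM in Control, against 5.2, 4.64 and 4.61 under K-3 (log2 fold change 0.34, SE 0.06, limma adjusted p = 0.0408). It lost its call when libraries were rescaled without mitochondrial-encoded genes (adjusted p = 0.0529). Its partners did not pass: SKA1 had a log2 change of 0.25 (adjusted p = 0.138) and SKA2 of 0.10 (adjusted p = 0.367). The MIS12 complex links the NDC80 complex to the centromere, and the 3 of its genes among the members did not pass. MIS12 had 7.31 ± 0.45 FPKM in Control, against 8.03 ± 0.27 with K-3 (adjusted p = 0.229), DSN1 4.63 ± 0.31 and 5.5 ± 0.57 (adjusted p = 0.169), and NSL1 7.5, 6.21 and 6.71 in Control and 7.34, 6.87 and 6.93 with K-3, where the groups overlapped (log2 fold change 0.05, -0.01 without Control replicate 2). KNL1, the scaffold on which BUB proteins dock, had 3.02 ± 0.35 and 3.49 ± 0.24 FPKM (adjusted p = 0.263), and ZWINT, a KNL1-binding protein, had 13.9 ± 0.55 and 16.8 ± 1.2 FPKM (log2 fold change 0.26, adjusted p = 0.0704). The NDC80 to MIS12 ratio went from 0.752 ± 0.081 to 1.01 ± 0.046, again without overlap.

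Promoters are shown for some of these genes because many cell cycle genes carry a cell cycle homology region (CHR) near their start, an element read as TTTGAA or TTTAAA by the repressor complex DREAM and the activator complex MMB. RefSeq promoters (build GRCh38.p14, 250 bases before to 50 after the annotated start) were found for 37 of the 46 members. Either CHR form, searched on both strands, occurred in 18 of these 37 (48.6%), in 24.0% of all 35116 promoters and in 15.1% of the promoters of 8997 tested protein-coding genes. CCAAT boxes, searched as CCAAT on both strands, occurred in 22 of the 37 (59.5%, against 36.7% of tested protein-coding genes), and the E2F word GGCGGGAA in 6 (16.2%, against 5.37%). In the lines below, 5′ to 3′ along the gene's strand, capitals mark each CHR. NDC80, SKA3, CDCA8 and BUB1B rose, SPC25 just missed the threshold, and CENPT, a member with a change below 0, had no match.
NDC80, chr18:2571307-2571606, + strand: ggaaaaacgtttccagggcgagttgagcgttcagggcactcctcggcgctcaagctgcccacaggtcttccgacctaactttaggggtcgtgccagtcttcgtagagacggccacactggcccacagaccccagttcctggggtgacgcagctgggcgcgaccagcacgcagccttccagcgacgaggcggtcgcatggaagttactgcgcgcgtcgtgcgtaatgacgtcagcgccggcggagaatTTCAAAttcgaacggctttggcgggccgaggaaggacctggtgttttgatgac
SKA3, chr13:21176503-21176802, - strand: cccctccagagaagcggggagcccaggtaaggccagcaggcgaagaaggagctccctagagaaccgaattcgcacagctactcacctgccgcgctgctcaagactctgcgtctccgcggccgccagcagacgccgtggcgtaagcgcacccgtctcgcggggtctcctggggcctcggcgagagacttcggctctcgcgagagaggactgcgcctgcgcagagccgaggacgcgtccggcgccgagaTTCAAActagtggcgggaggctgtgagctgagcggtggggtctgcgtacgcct
SPC25, chr2:168890381-168890680, - strand: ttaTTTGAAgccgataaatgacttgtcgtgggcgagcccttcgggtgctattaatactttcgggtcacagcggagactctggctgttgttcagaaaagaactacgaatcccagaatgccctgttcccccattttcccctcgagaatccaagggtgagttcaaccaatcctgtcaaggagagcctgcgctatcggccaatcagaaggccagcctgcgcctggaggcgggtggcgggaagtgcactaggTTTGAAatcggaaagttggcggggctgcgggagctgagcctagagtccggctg
CDCA8, chr1:37692266-37692565, + strand: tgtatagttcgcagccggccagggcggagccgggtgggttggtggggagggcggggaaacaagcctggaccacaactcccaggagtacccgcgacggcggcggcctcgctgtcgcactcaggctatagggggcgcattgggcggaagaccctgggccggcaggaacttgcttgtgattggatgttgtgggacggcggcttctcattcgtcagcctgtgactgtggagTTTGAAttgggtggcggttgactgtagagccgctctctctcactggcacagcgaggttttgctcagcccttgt
BUB1B, chr15:40160819-40161118, + strand: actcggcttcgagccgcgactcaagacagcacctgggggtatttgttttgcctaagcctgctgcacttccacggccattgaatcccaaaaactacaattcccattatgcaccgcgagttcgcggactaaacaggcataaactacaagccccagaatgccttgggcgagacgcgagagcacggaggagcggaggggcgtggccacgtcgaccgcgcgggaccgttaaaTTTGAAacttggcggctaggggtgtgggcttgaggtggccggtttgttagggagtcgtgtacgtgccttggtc
CENPT, chr16:67847644-67847943, - strand: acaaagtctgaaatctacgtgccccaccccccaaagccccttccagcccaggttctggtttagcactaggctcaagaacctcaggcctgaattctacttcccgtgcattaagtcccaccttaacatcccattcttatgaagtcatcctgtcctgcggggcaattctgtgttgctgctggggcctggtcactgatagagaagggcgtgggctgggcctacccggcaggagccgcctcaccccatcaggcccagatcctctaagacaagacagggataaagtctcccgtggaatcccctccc

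In NDC80 and SKA3 the match begins at position -3, where 0 is the RefSeq start, and in CDCA8 and BUB1B at position -23. Of the 18 tested members with a CHR, 7 rose, with a median log2 change of 0.30, and of the 18 without, 2 rose (AURKB and BUB1), with a median of 0.18. For the CCAAT box, 5 of 22 tested members with it rose (median 0.29) and 4 of 14 without it (0.22). For the E2F word, 0 of 6 with it rose (median 0.23) and 9 of 30 without it (0.26). BIRC5 and TTK, which also rose, are not among the 37. These counts are a description of letters in a fixed window, without a test: a match is not a shown binding site, AURKB and BUB1 rose without a match, and CENPC, ZW10 and CENPO have a match with log2 changes of -0.02, 0.10 and 0.10.

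**Figure D4:**
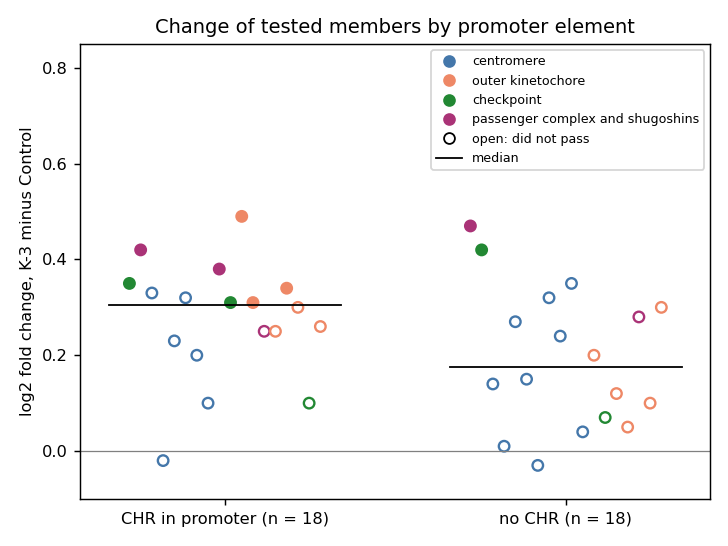
Log2 fold change, K-3 minus Control, of the 36 tested members with a RefSeq promoter, split by whether either CHR form occurs in the 300-base window; the line is the median, filled points passed an adjusted p of 0.05 and colours give the role group. The medians are 0.30 with and 0.18 without the element, and the point ranges of the 2 sets overlap widely.

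The centromere protein genes ranged from log2 changes of -0.03 to 0.38 with a median of 0.20, against 0.01 over all tested genes. CENPF, a large protein of the outer corona, had 12.6, 14.2 and 12.5 FPKM in Control, against 17.5, 16.6 and 15.7 under K-3, and missed the threshold narrowly (log2 fold change 0.32, SE 0.06, adjusted p = 0.0536). CENPE, a kinesin that carries chromosomes to the spindle equator, had 4.72, 5.34 and 4.83 FPKM in Control, against 6.19, 5.93 and 5.89 under K-3 (log2 fold change 0.23, SE 0.05, adjusted p = 0.067). CENPA, the centromeric histone, had 7.04, 7.45 and 5.9 FPKM in Control, against 8.83, 8.57 and 8.89 under K-3 (log2 fold change 0.33, SE 0.07, adjusted p = 0.0689). In all 3 genes every K-3 library lay above every Control library, as in 15.4% of all tested genes. All 3 passed by limma voom on recovered fragments, with adjusted p-values of 0.0125, 0.0221 and 0.0375, and when protein-coding genes alone were tested. None of the 3 passed with no filter on low values (limma adjusted p = 0.197, 0.212 and 0.228), or when any K-3 replicate was left out.

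The inner centromere network was uneven. CENPH had 12.5 ± 0.96 FPKM in Control, against 16.7 ± 2.1 with K-3, CENPU 8.24 ± 0.53 and 10.5 ± 1.0, CENPW 9.46 ± 1.1 and 12.3 ± 0.98, CENPM 3.36 ± 0.46 and 4.31 ± 0.28, CENPK 2.84 ± 0.42 and 3.61 ± 0.34, and CENPN 3.62 ± 0.16 and 4.31 ± 0.13, with log2 changes of 0.20 to 0.38 and adjusted p-values of 0.0737 to 0.161. Of the other members of this group, 4 had log2 changes between -0.03 and 0.04. CENPC, which binds the CENP-A nucleosome and the MIS12 complex, had 3.15, 3.66 and 3.39 FPKM in Control, against 3.51, 3.44 and 3.07 under K-3 (log2 fold change -0.02, adjusted p = 0.88, with 0.02 leaving out Control replicate 2 and 0.03 leaving out K-3 replicate 3). CENPT, which recruits the NDC80 complex by a second route, had 4.87, 5.3 and 5.23 FPKM in Control, against 5.07, 4.85 and 5.1 under K-3 (log2 fold change -0.03, adjusted p = 0.738). CENPI, a partner of CENPH and CENPK in the same subcomplex, had 3.29, 3.47 and 3.66 FPKM in Control, against 3.72, 3.4 and 3.37 under K-3 (log2 fold change 0.01, -0.02 without Control replicate 1). CENPX, a histone-fold protein shared with DNA repair, had 17.4, 16.2 and 14.8 FPKM in Control, against 15.2, 16.2 and 18.7 under K-3 (log2 fold change 0.04, -0.01 without Control replicate 3). The groups overlapped in each of these 4 genes.

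Other members named for the centromere had middling values. CENPB, which binds a motif in satellite DNA, had 21.1 ± 1.4 and 23.3 ± 1.4 FPKM (log2 fold change 0.14, adjusted p = 0.247), and CENPV, a protein of centromeric heterochromatin and microtubules and the most abundant member per length, had 27.6 ± 2.1 and 32.7 ± 1.3 FPKM (0.24, adjusted p = 0.0902). CENPJ, which despite its name is a centriole protein that sets centriole length, had 4.04 ± 0.51 and 4.51 ± 0.22 FPKM (0.13, adjusted p = 0.352). CENPQ, CENPO and CENPL, of the inner network, had log2 changes of 0.15, 0.10 and 0.13 without passing. CENPA to CENPC in FPKM went from 2.0 ± 0.25 to 2.63 ± 0.23 without overlap. Of the centromere genes, CENPP shares 38.0% of its exon bases with IPPK, CENPO 27.0% with ADCY3, CENPN 12.8% with CMC2 and CENPU 11.7% with PRIMPOL, each on the opposite strand. MIS12 shares 9.53% with DERL2, CENPV 8.96% with PIGL and CENPT 6.86% with THAP11, again on opposite strands, and CENPA 6.96% with SLC35F6 on the same strand. The sources used here do not say whether counting used strand, so the values of these genes are uncertain. None of the 11 members that rose shares exon bases with a tested gene.

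The level of the whole set also varied between libraries of a group. Relative to each gene's mean over all libraries, the median log2 level of the 45 tested members was -0.09, -0.09 and -0.17 in Control replicates 1, 2 and 3 and 0.14, 0.10 and 0.09 in K-3 replicates 1, 2 and 3. Over all tested genes these medians lay between -0.02 and 0.01. Control replicate 3 was the lowest Control library in 25 of 45 members and K-3 replicate 1 the highest K-3 library in 23. The median coefficient of variation of the members was 6.53% in Control and 4.49% with K-3, near the 5.96% and 5.22% of all tested genes.

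Genes that work next to these complexes were looked up in 4 further lists, chosen by function with earlier results of these data known. By the same test, 1.14% of all 12989 tested genes were higher and 0.901% lower. Of 15 tested assembly partners, 6 rose and 0 fell (median log2 change 0.26), among them HJURP, the chaperone that deposits CENP-A (5.26 ± 0.54 to 7.32 ± 0.38 FPKM, adjusted p = 0.0383), SPDL1, the dynein adaptor spindly (0.29 on the log2 scale, adjusted p = 0.0378), and KNSTRN, or kinastrin (0.28, adjusted p = 0.0378). KNSTRN lost its call at equal depth (adjusted p = 0.0517), and HJURP lost its call when libraries were rescaled without mitochondrial-encoded genes (adjusted p = 0.0503). PMF1 and ITGB3BP, which encode the MIS12 complex subunit NNF1 and the centromere protein CENP-R, had the largest p-values, with log2 changes of 0.05 and 0.13. Of 15 mitotic entry genes, 9 rose and 0 fell (median 0.32). CCNB2 and CCNA2, cyclins of CDK1, rose by 0.39 and 0.48, and CDC25C, the phosphatase that activates CDK1, by 0.40 (adjusted p = 0.017, 0.0183 and 0.0194), while WEE1, the kinase that inhibits CDK1, had 23.2 ± 0.93 and 23.2 ± 1.1 FPKM, and NEK2, a centrosome kinase, had a log2 change of 0.13 without passing.

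The anaphase-promoting complex is the ubiquitin ligase that the checkpoint holds back. Against 1.14% of all tested genes higher and 0.901% lower, it had 2 of 18 higher and 0 lower (median log2 change 0.08). These were its ubiquitin-conjugating enzyme UBE2C (36.4 ± 1.6 to 49.5 ± 2.2 FPKM, adjusted p = 0.0194) and its inhibitor FBXO5 (6.36 ± 0.37 to 8.11 ± 0.29 FPKM, adjusted p = 0.0378). The core subunit ANAPC4 had a log2 change of -0.25 without passing (adjusted p = 0.0912). Of 14 tested cohesin and separase genes, 2 rose, 1 fell and the median was 0.02. PTTG1, or securin, the inhibitor of separase, rose by 0.42 (adjusted p = 0.0194), and ESPL1, separase itself, by 0.36 (adjusted p = 0.0378). STAG1, a cohesin subunit, fell: it had 20.1 ± 1.2 FPKM without K-3 and 14.4 ± 0.78 with it (log2 fold change -0.45, SE 0.06, limma adjusted p = 0.0254), while its paralog STAG2 had 16.5 ± 0.28 and 16.6 ± 0.15 FPKM and WAPL, which releases cohesin, 19.2 ± 0.38 and 18.9 ± 0.57. All named rises of these lists lost their calls without Control replicate 3 or any K-3 replicate, and so did the fall of STAG1 (adjusted p = 0.0856 to 0.0957). Of all 148 genes that rose, 11 (7.43%) are members, as are 45 of the 12989 tested genes. Members or genes of these 4 lists, chosen with earlier results known, make up 30 of the 148 (20.3%). Assembly partners, mitotic entry, anaphase-promoting complex and cohesin lists hold 15, 15, 18 and 14 tested genes.

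**Figure D5:**
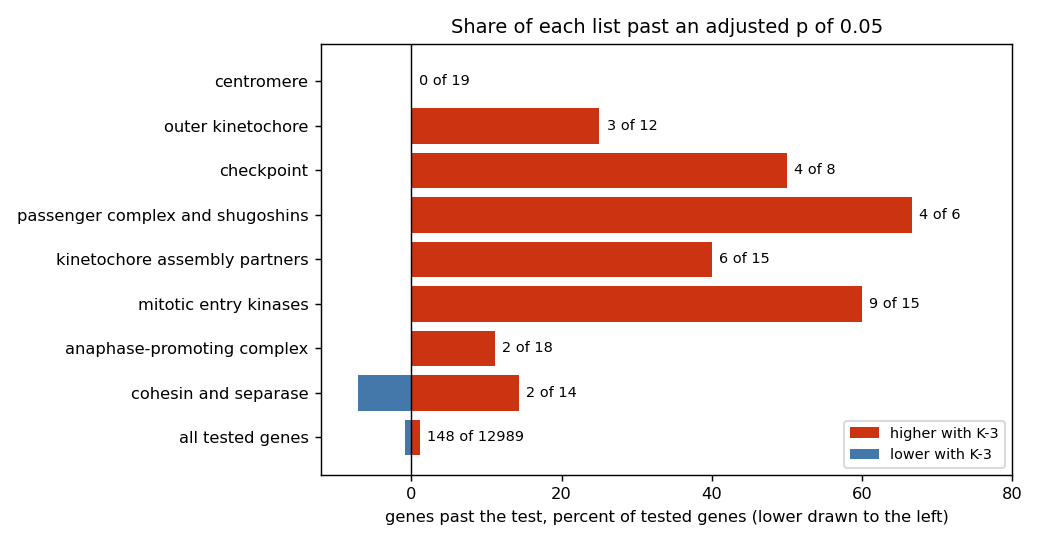
Share of tested genes past an adjusted p of 0.05 in each role group, in 4 lists of neighbouring genes and over all 12989 tested genes, as a percent of tested genes; genes lower with K-3 are drawn to the left of 0. The bar of the passenger group (4 of 6) is the longest and the centromere group has none, where all tested genes have 148 of 12989.

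In build GRCh38, BIRC5 (ENSG00000089685) spans chr17:78214186-78225636 on the + strand, AURKB (ENSG00000178999) chr17:8204733-8210600 on the - strand, BUB1 (ENSG00000169679) chr2:110637698-110678114 on the - strand and NDC80 (ENSG00000080986) chr18:2571511-2616635 on the + strand. The values are 1 total over the annotated exons of each gene, so isoforms are not separated.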

How the data were processed

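The authors deposited FPKM for 6 libraries, annotated by gene. Per the submitters' processing notes, the tools were DESeq2 1.20.0, featureCounts 1.5.0-p3 and HISAT2 2.0.5, listed in no stated order, on GRCh38; settings are not stated. All 58735 gene IDs and positions equal those of GENCODE release 29. In each library FPKM times length steps in whole fragments (100% of values above 0, within a relative 1e-06), which gave the totals. The library size behind the FPKM was not this total: for Control replicate 1 it was 38177025, against 38809532 fragments. It lay within 0.057% to 0.46% of a size factor (a median of gene ratios) times the mean total. Genes were tested with limma 3.58.1 (R 4.3.3, lmFit and eBayes with a trend) on log2(FPKM + 1), 2-sided, for a mean of at least 1 FPKM, with Benjamini-Hochberg adjustment over all 12989 genes; the fit was tested on simulated fragments. A permutation test of 3 against 3 libraries cannot go below p = 0.1. Pairs of libraries differed by a chi-square of 6.0 to 28.6 per degree of freedom, so no pair agreed within sampling noise. Values in every library were given for the 4 genes NDC80, BUB1, AURKB and BIRC5, the 3 smallest p of each role group, every change below 0 and the 6 largest p. Members, lists and tests were chosen with earlier results of these data known.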

Additional observations from a re-analysis of the deposited data

How the results depend on the processing

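The median log2 change of the tested members was 0.22 to 0.28 in every alternative run, and 0 members were lower in each. The number of members higher (11) was 0 with no filter on low values, 18 at a mean of at least 5 FPKM, 23 among protein-coding genes only and 19 by limma voom on recovered fragments, the last an alternative chosen after seeing the data; without single libraries it ranged from 0 to 16. Over all genes, the 148 higher and 117 lower became 0 and 0 with no filter (1904 and 2268 at an unadjusted p under 0.05), 237 higher at a mean of at least 5 FPKM, 405 and 289 among protein-coding genes, 412 and 400 by limma voom, and 0 to 271 and 0 to 446 without single libraries. TMM factors turned the split to 200 higher and 97 lower, with 13 members higher. With the replicate number as a block (replicate block), 0 members and 0 and 0 genes passed, while 26 members were higher at an unadjusted p under 0.05 (limma; 1120 genes higher and 1014 lower); same-numbered libraries did not deviate together (correlations of -0.36, -0.034 and -0.11), so the numbers do not pair them. With no filter and by adjusting over other gene sets the number of genes tested itself changes; the causes of the other differences were not tested.

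Among the genes named in the text, signs turned for these, all with changes near 0: CENPI was -0.01 at equal depth, WEE1 0.02 with TMM factors and STAG2 -0.00 without mitochondrial-encoded genes. Without single libraries CENPC ranged from -0.06 to 0.03, CENPI from -0.03 to 0.04, CENPX from -0.04 to 0.11, NSL1 from -0.01 to 0.11, KNTC1 from -0.06 to 0.07, WEE1 from -0.03 to 0.04 and STAG2 from 0.00 to 0.02. The planned count tests with edgeR and DESeq2 were not run, since the deposited values are FPKM. In a 1 kb gene, 3 fragments correspond to 0.0591 to 0.0834 FPKM depending on the library; as a detection limit this takes in counting error alone.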
